A study of Homo sapiens with 4 samples.

Results

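Glucose removal in DLD1, an established human colorectal adenocarcinoma cell line, was measured on 2 of the 4 single-colour (Cy5) arrays of the study. They were chosen by the cell line and medium in the labels. Culture in complete medium was followed by 24 h in medium with 10% dialysed fetal bovine serum and added nutrients. The DLD1 array with glucose had 10 mM glucose and 2 mM glutamine, and the DLD1 array without glucose had 2 mM glutamine and 0 mM glucose, as read from the sample titles, since the growth protocol names glucose or glutamine as added without saying which dish had both. The remaining 2 arrays held HT29, another colorectal adenocarcinoma line, under the same pair of media, and are given only beside DLD1 values. Each line and medium had 1 array, and no label states that cultures were repeated or pooled, so no difference below has a replicate check or a p-value. Of 17605 genes with a symbol, 15961 lay above the blank spots on at least 1 DLD1 array and are described here.

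Cells take up glucose for glycolysis and also for building the sugar chains that proteins receive in the endoplasmic reticulum. When glucose is short, proteins misfold there, and 3 sensors, PERK, IRE1 and ATF6, start the unfolded protein response. PERK acts through phosphorylated eIF2α, which slows translation as a whole while the transcription factor ATF4 is made. ATF4 and CHOP switch on genes for amino acid supply and transfer RNA charging, and ATF6 and spliced XBP1 those for chaperones. Glutamine can still feed the tricarboxylic acid cycle of such cells.

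Signals are given in array units after background correction, an added offset of 50 and quantile normalization, so a gene without RNA reads near 50. Changes are log2 values of the signal without glucose over that with glucose, positive where the array without glucose was higher. The offset shrinks the changes of dim genes. On the DLD1 arrays 85.5% and 86.0% of probes lay above the 95th percentile of the blank spots. Markers of colorectal epithelium were above background for all 13 measured genes, with EPCAM at 10871 with and 8083 without glucose and KRT18 at 23069 and 20557. Their median was 326 with and 377 without glucose. Some were dim, with LGALS4 at 61.6 and 69.9, CDX1 at 64.6 and 66.2 and GPA33 at 77.2 and 77.7. Most markers of other cell types read near the floor of the scale, with exceptions. The median over 13 mesenchymal markers, 7 of them above background, was 53.2 with and 53.3 without glucose. It was 56.0 and 55.6 over 10 leukocyte markers, 8 of them above background, and 54.0 and 53.1 over 5 endothelial markers, 3 of them above it. The highest were CD79A at 153 and 165, DCN at 92.9 and 92.4, KDR at 86.5 and 75.8, CD14 at 83.1 and 74.3 and CD68 at 72.8 and 96.9. COL1A1, COL1A2, COL3A1, LUM, PTPRC and MS4A1 were not above background on either array, and no marker of the 4 cell types was 2-fold higher or lower.

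The comparison asks which genes a colorectal cancer line expresses more or less of after a day on glutamine without glucose. In DLD1, 188 genes (1.18% of those measured) were at least 2-fold higher without glucose and 129 (0.808%) at least 2-fold lower. Of these, 1 higher and 0 lower genes came from the 8657 with a mean signal under 100, where the offset shrinks changes. Over all measured genes 7791 were above 0 and 8161 below. Among genes past 2-fold the higher side reached further. At 4-fold, 17 genes were higher and 3 lower, and 3 genes were more than 8-fold higher and 0 lower. Median scaling in place of quantile normalization turned the split from 59.3% higher to 23.8% higher, with 100 genes higher and 320 lower, and genes with signals of 400 to 1600 then had a median change of -0.33, against -0.05 with quantile normalization. All 100 of those higher genes were among the 188, and all 129 lower genes were among the 320. Under 8 other settings at once, 60 higher and 54 lower genes stayed past 2-fold. For 1782 genes with a pair of probes above background, the SD of the change of a single probe was 0.19, which covers differences between probes and not between cultures.

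**Figure D1:**
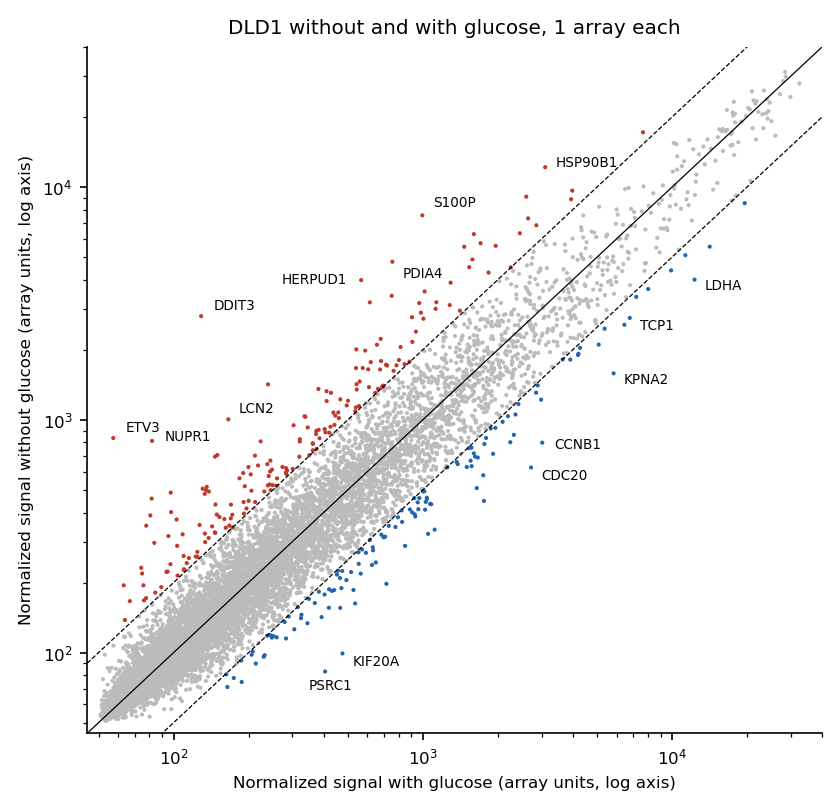
Normalized signal of 15961 genes in DLD1 with glucose (horizontal, array units, log axis) against without glucose (vertical, array units, log axis), 1 point a gene. The solid line marks equal signal and the dashed lines 2-fold, with the 188 higher genes in red and the 129 lower genes in blue. DDIT3, ETV3 and NUPR1 lie farthest above the line and PSRC1, KIF20A and CDC20 farthest below it.

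The transcription factors of the unfolded protein response held the gene with the largest change. DDIT3, which encodes CHOP, a factor that links lasting stress to cell death, had a signal of 129 with glucose and 2790.3 without, a log2 change of 4.43 or 21.6-fold. CEBPB, which encodes a partner of CHOP, read 588 and 1985 (1.75). XBP1, whose spliced form drives chaperone genes, read 905 and 2761 (1.61), although it was at -0.85 with the local background subtracted. The array reads total XBP1 and says nothing of splicing. ATF3, a stress factor downstream of ATF4, read 74.8 and 219 (1.55). ATF4 itself read 508 and 874 (0.78), with its 2 probes far apart at 0.11 and 1.45. The sensors did not reach 2-fold on this scale. EIF2AK3 (PERK) read 75.5 and 101 (0.43), ATF6 275 and 355 (0.37) and ERN1 (IRE1) 67.6 and 66.9 (-0.01). EIF2AK3 and ERN1 are dim genes, whose changes the offset shrinks. Of the 18 genes of this list, 4 were at least 2-fold higher and 0 lower, and the median was 0.21, against -0.002 over all measured genes. With the authors' values the list median was 0.71, with 6 genes at least 2-fold higher.

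Another list held 14 genes: eIF2α itself, its kinases and phosphatase subunits, their regulators, and TRIB1, TRIB2 and TRIB3. Of these, 3 were at least 2-fold higher and 0 lower. DNAJC3, which encodes the PERK inhibitor p58IPK, read 303 with and 948 without glucose (1.65). PPP1R15A, which encodes GADD34, the phosphatase subunit that restores eIF2α, read 93.7 and 222 (1.25). TRIB3, an inhibitor of AKT that CHOP and ATF4 induce, read 1294 and 3887 (1.59). PPP1R15B, the other phosphatase subunit of this kind, read 221 and 203 (-0.12). The kinases themselves did not reach 2-fold. EIF2AK2 (PKR) was at 0.35, EIF2AK4 (GCN2) at 0.01 and EIF2AK1 (HRI) at -0.25. The list median of 0.11 was -0.03 with median scaling.

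The chaperones of the endoplasmic reticulum lumen were higher as a group. All 21 measured genes of the list were above 0, 13 at least 2-fold. The list also counts SEC61B (0.35), a translocon subunit and not a lumen chaperone. The median was 1.13, with a range of 0.95 to 1.39 over the settings tried. HSP90B1, which encodes the HSP90 of this compartment, read 3099 with and 12176 without glucose (1.97). HSPA5, which encodes BiP, the HSP70 of the lumen and the brake on all 3 sensors, read 131 and 506 (1.95). CRELD2, a secreted stress-induced protein, read 750.4 and 3412 (2.19). BiP works with J-domain partners and exchange factors, which were higher too. DNAJB9 read 135 and 499.5 (1.89). DNAJB11 read 1018 and 3563 (1.81), and SIL1, an exchange factor, 321 and 826 (1.36). MANF, a BiP-binding protein that is also secreted, read 2602 and 9102 (1.81). The lectin chaperones that hold glycoproteins differed less, with CALR at 125 and 271 (1.12) and CANX at 2733 and 4679 (0.78). The glucosyltransferases that return proteins to them were dim, with UGGT1 at 74.7 and 78.8 (0.08) and UGGT2 at 79.6 and 83.9 (0.07). The offset shrinks the changes of such dim genes.

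Enzymes that form disulfide bonds split into a few high members and the rest. PDIA4, a disulfide isomerase, read 755 with and 4782 without glucose (2.66, or 6.33-fold). ERO1B, an oxidase that recharges the isomerases, read 80.7 and 389 (2.27). Its relative ERO1A read 608 and 1002 (0.72). ERP44, which retains ERO1 enzymes in the cell, was at 1.35, PDIA3, the isomerase for glycoproteins, at 1.28 and P4HB, the founding isomerase, at 1.0. In all 5 of 20 were at least 2-fold higher and 0 lower, and the median was 0.27. Of 24 degradation genes 2 were past 2-fold higher. HERPUD1, which organizes the ubiquitin ligase complex for misfolded proteins, read 566 and 3988 (2.82), and DERL3 66.8 and 166 (1.32). UBE2G2, a ubiquitin-conjugating enzyme of the same route, went the other way, at 632 and 275 (-1.20).

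The import and export machinery of the compartment was close to even in DLD1. Of 40 translocon and vesicle genes, 2 were at least 2-fold higher and 0 lower, and the median of 0.05 turned to -0.13 with median scaling and -0.04 with the authors' values. The exceptions were signal peptidase subunits, which cut the leader from new secretory proteins: SEC11C read 542 and 1423 (1.39) and SPCS3 719 and 1712 (1.25). In HT29 the median of the same 40 genes was 1.04, with 21 at least 2-fold higher, and no test of this gap between the lines could be made. Of 41 genes for hexosamines and N-glycans, 2 were at least 2-fold higher and 0 lower, and the median of 0.03 was -0.06 with median scaling and -0.11 with the authors' values. GFPT1, the first enzyme of hexosamine synthesis from fructose 6-phosphate and glutamine, read 604 and 1649 (1.45). MAGT1, a subunit of an oligosaccharyltransferase, read 385 and 834 (1.11).

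The promoters of 4 of these genes are shown because they hold the letters of the endoplasmic reticulum stress element, the binding site of NF-Y with ATF6 or XBP1. Sequences are from RefSeq (GRCh38.p14), 5′ to 3′ on the strand of the gene, with CCAAT and CCACG (or, on the other strand, CGTGG and ATTGG) in capitals and the 9 bases between them in lower case. Each stretch has 80 bases upstream of the annotated start, from the 4 higher genes with the largest change whose promoter held the element upstream of the start. HSP90B1 held 2 matches, and only the one farthest upstream is shown.
ERO1B (chr1:236282129-236282208, minus strand): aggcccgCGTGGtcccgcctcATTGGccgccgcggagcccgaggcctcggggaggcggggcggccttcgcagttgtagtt
CRELD2 (chr22:49918523-49918602, plus strand): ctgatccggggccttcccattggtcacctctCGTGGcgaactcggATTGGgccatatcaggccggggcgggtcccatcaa
HSP90B1 (chr12:103930185-103930264, plus strand): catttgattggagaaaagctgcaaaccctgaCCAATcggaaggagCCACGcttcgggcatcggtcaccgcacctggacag
HSPA5 (chr9:125241361-125241440, minus strand): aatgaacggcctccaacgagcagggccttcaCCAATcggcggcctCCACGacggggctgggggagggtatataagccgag
RefSeq promoters, 250 bases before to 50 after the start, were found for 12811 of 15961 measured genes, and for 163 of the 188 higher and 103 of the 129 lower ones. The element, CCAAT, 9 bases of any kind and CCACG, searched on both strands, was in 17 of the 12811 (0.133%), in 7 of the 163 (4.29%) and in 0 of the 103. In the chaperone list it was in 5 of 20 promoters. Of the 17 genes, 16 had a change above 0, with a median of 0.60. Besides the 4 shown, XBP1, TRIM5 and CALR were past 2-fold, and CANX at 0.78, SERP1 at 0.60, EIF2A at 0.56, GLRA2 at 0.49 and FICD at 0.47 followed. A CCAAT box, which the element contains, was in 50.3% of the higher, 56.3% of the lower and 36.5% of all promoters. The letters describe the window and show no binding.

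Among genes for amino acid supply, single members were past 2-fold and most were not. Of 18 cytosolic aminoacyl-tRNA synthetase genes, which load transfer RNAs, and AIMP1, a scaffold of their complex (-0.02), 4 were at least 2-fold higher and 0 lower, and the median of 0.17 was -0.11 with median scaling and -0.01 with the authors' values. WARS1, for tryptophan, read 541 with and 2009 without glucose (1.89). AARS1, for alanine, read 1134 and 3201 (1.5), and CARS1, for cysteine, 680.5 and 1790.5 (1.40). SARS1, for serine, read 802 and 1808 (1.17) but was at -0.84 with the local background subtracted. At the other end of the list FARSA, VARS1 and FARSB were at -0.49, -0.46 and -0.41. None of 16 mitochondrial synthetases was past 2-fold, with a median of -0.13.

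Transporters and enzymes also had few members past 2-fold. SLC3A2, the heavy chain that carries several amino acid transporters to the surface, read 1706 with and 5744 without glucose (1.75). SLC38A2, a transporter of neutral amino acids, read 238 and 645 (1.44). The other 20 of 22 measured transporters were below 2-fold, and the list median was 0.21. ASNS, asparagine synthetase, read 1837 and 4295 (1.23), alone past 2-fold among 17 genes for asparagine, proline and glutamate. MTHFD2, the mitochondrial folate enzyme, read 1467 and 5545 (1.92), alone among 18 serine and one-carbon genes, whose median was -0.003. Among 19 genes for cysteine and glutathione, TXNRD1, a thioredoxin reductase, read 1962 and 5596 (1.51). CHAC1, which breaks down glutathione and is a target of CHOP and ATF4, read 153 and 382 (1.32). With SLC3A2, these were the 3 members past 2-fold, all higher, and the median was 0.29.

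The core of the ATF4 composite element, TGATGNAA, is shown in the promoters of 4 higher genes, chosen as above, in capitals on either strand. SLC3A2, whose change lies between those of HERPUD1 and PRSS3, is not shown because its match lies after the start.
S100P (chr4:6693719-6693798, plus strand): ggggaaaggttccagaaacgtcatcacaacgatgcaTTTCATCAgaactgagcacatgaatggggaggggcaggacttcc
HERPUD1 (chr16:56931930-56932009, plus strand): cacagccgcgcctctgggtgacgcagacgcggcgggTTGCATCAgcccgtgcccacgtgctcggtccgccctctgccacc
PRSS3 (chr9:33795391-33795470, plus strand): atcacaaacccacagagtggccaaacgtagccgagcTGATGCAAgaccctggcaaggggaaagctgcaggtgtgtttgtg
ATF3 (chr1:212565180-212565259, plus strand): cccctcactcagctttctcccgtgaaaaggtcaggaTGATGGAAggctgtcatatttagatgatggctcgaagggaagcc
The core was in 10 of the 163 higher promoters (6.13%), 3 of the 103 lower ones (2.91%) and 302 of all 12811 (2.36%). It was in 6 of the 16 promoters found for the cytosolic synthetase list. Among the 10 were SLC3A2, AARS1, CARS1, CHAC1 and ASNS, beside the trypsinogen genes PRSS2 and PRSS3, whose near-identical sequences one probe may read together. The windows do not reach elements that lie farther from the start.

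Genes that restrain mTORC1, the growth kinase complex, had 2 members far above the rest. DDIT4, which encodes REDD1, read 239.6 with and 1421 without glucose (2.57), and SESN2, sestrin 2, read 218 and 637 (1.55). The median over 14 genes was 0.11, and 0.34 with the authors' values, where 3 were at least 2-fold higher and 1 lower. The median signal of this list was 85.2, and the offset shrinks the changes of its dim genes, such as DDIT4L at 53.4 and 52.7. Autophagy genes, which mTORC1 holds back, were at least 2-fold higher in 5 of 38 cases and lower in 0, with a median of 0.16. WIPI1, a lipid-binding protein of the forming vesicle, read 103 and 373 (1.86). GABARAPL1, a membrane tag of the vesicle, read 467 and 1226 (1.39). The other 3 were cargo receptors, with CALCOCO2 at 1.33, OPTN at 1.17 and SQSTM1 (p62) at 1.06. None of 38 lysosome and V-ATPase genes was past 2-fold, and their median of -0.006 was 0.01 with the local background subtracted.

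**Figure D2:**
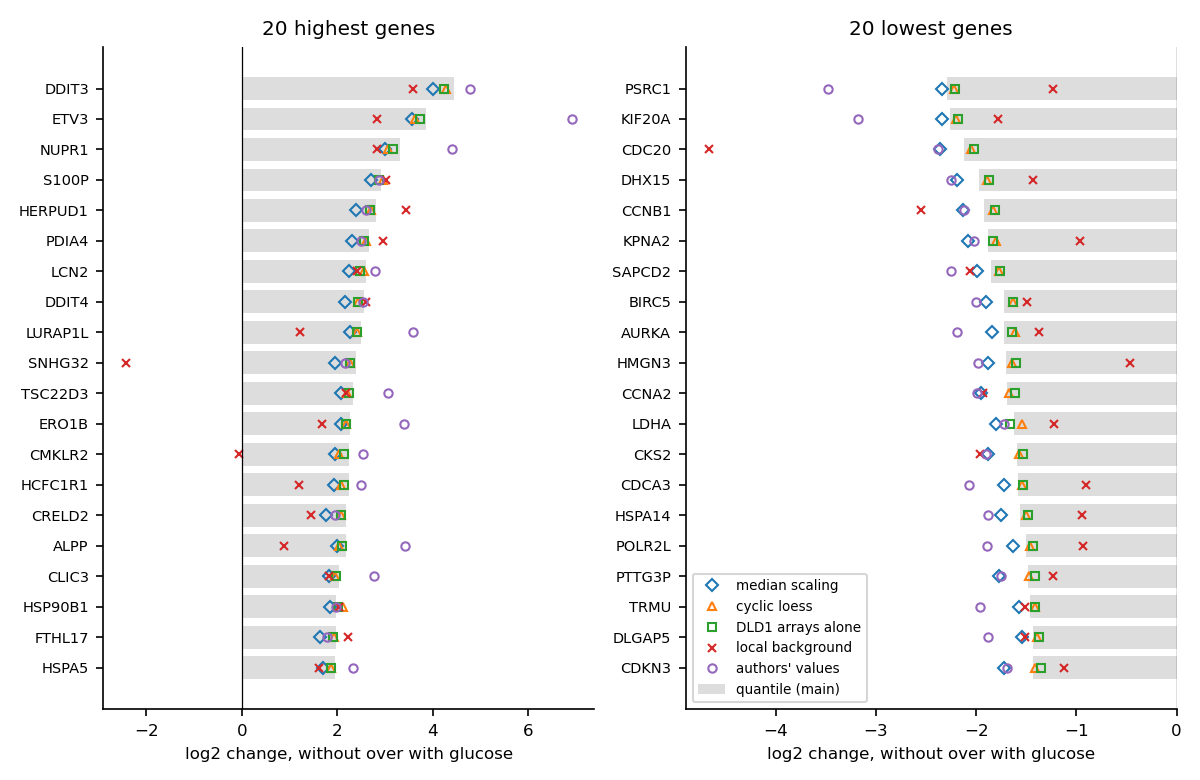
Log2 changes in DLD1, without over with glucose, of the 20 highest and 20 lowest genes. Grey bars give quantile normalization, and symbols give median scaling, cyclic loess, quantile normalization of the DLD1 arrays alone, local background subtraction and the authors' values. SNHG32 (-2.43) and CMKLR2 (-0.06) lie below 0 with the local background subtracted, and ETV3 is at 6.91 with the authors' values.

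The 20 highest genes also held members from outside the unfolded protein response and amino acid lists. ETV3, an ETS-family repressor, read 57.3 with glucose, near the floor, and 836 without (3.87). NUPR1, a small stress-induced chromatin protein, read 82.0 and 812 (3.31). S100P, a calcium-binding protein of many epithelial tumours, read 996 and 7566 (2.92). LCN2, the iron-carrier protein lipocalin 2, read 166 and 1006 (2.60). TSC22D3, which encodes the glucocorticoid-induced protein GILZ, read 97.4 and 487 (2.32). LURAP1L and HCFC1R1 read 81.7 and 459 (2.49) and 149.9 and 706 (2.24). CLIC3, a chloride channel-like protein, read 97.8 and 402 (2.04). The other members are less certain. SNHG32, a host gene of small nucleolar RNAs, read 613 and 3198 (2.38), and the receptor gene CMKLR2 147 and 695 (2.25), but with the local background subtracted they were at -2.43 and -0.06. ALPP, an alkaline phosphatase of placenta (2.18), and FTHL17, a ferritin-like gene (1.97), have close relatives whose RNA their probes may read.

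Genes of mitosis were lower as a group. Of 58 mitotic kinases, cyclins and kinetochore genes, 55 were below 0, 21 at least 2-fold, and none was 2-fold higher, with a median of -0.87 and a range of -1.26 to -0.65 over the settings. In RNA from whole cultures, fewer cells in mitosis and less RNA per cell cannot be told apart. PSRC1, a spindle protein, was the lowest of all genes, at 406 with and 83.0 without glucose (-2.29, or 4.89-fold lower). CDC20, the activator of the anaphase-promoting complex, read 2721 and 625 (-2.12). CCNB1, cyclin B1, read 3017 and 799 (-1.92). Kinases of the spindle were lower by different amounts. AURKA read 536 and 163 (-1.72) and PLK1 164 and 71.2 (-1.21), while AURKB (-0.82), CDK1 (-0.90) and NEK2 (-0.94) did not reach 2-fold. Their partners were also lower, with BIRC5 (survivin) at 1116 and 338 (-1.73) and TPX2, which activates AURKA, at 929 and 393 (-1.24). The checkpoint kinase genes BUB1B (-1.25) and BUB1 (-1.06) were at 0.71 and 0.29 with the local background subtracted. The 20 lowest genes also held CCNA2, cyclin A2 (1647 and 509, -1.69), CKS2, a subunit of cyclin-dependent kinases (1749 and 578, -1.60), and CDKN3, a phosphatase of CDK1 and CDK2 (2321 and 863, -1.43). DLGAP5, a spindle protein, was at -1.43, CDCA3, a trigger of mitotic entry, at -1.58 and SAPCD2, which orients the spindle, at -1.85. PTTG1, securin, was at -1.31, and its pseudogene PTTG3P at -1.49, and the probes of the pair may read the same RNA.

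Of 35 kinesin genes 4 were at least 2-fold lower and 0 higher, with a median of -0.08. KIF20A, the kinesin of late mitosis, read 476 with and 99.2 without glucose (-2.26). KIFC1 (-1.37), KIF20B (-1.07) and KIF11 (-1.04) were the other kinesins past 2-fold. KPNA2, importin α, which carries cargo into the nucleus, read 5832 and 1584 (-1.88). Of 50 replication genes 44 were below 0, with a median of -0.37, and 2 passed 2-fold. MCM7, a helicase subunit, read 1663 and 689 (-1.27), and FEN1, the flap nuclease, 1556 and 668 (-1.22). With median scaling 8 passed. Deoxynucleotide and pyrimidine genes had a median of -0.42 with 0 of 20 past 2-fold, and DNA repair genes -0.20 with 0 of 34. Of 26 CDK inhibitor and G1 genes none passed 2-fold. CDKN1A, the p21 inhibitor, read 100.3 and 141 (0.49). Of 38 histone genes, whose copies share sequence, 2 were past 2-fold lower, H3-3B (-1.25) and H2AC20 (-1.18).

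The promoters of 4 of the lowest genes are shown because they hold the letters of the cell cycle homology region, TTTGAA, at which repressor complexes keep mitotic genes silent outside G2 and mitosis. Capitals mark it on either strand, here as TTCAAA, and the genes were chosen as for the higher ones. CDC20 and KPNA2 each held 2 matches, and only the one farthest upstream is shown. In CDC20 the match shown lies 178 to 173 bases before the start.
CDC20 (chr1:43358766-43358845, plus strand): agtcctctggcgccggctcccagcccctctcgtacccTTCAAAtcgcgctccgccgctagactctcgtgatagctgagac
KPNA2 (chr17:68035599-68035678, plus strand): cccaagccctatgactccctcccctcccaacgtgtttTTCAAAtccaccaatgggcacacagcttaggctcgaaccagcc
SAPCD2 (chr9:137070558-137070637, minus strand): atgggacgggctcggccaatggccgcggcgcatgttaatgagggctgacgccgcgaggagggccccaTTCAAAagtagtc
CKS2 (chr9:89311115-89311194, plus strand): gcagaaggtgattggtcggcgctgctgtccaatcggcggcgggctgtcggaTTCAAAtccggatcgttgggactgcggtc
TTTGAA was in 29 of the 103 lower promoters (28.2%), 13 of the 163 higher ones (7.98%) and 1421 of all 12811 (11.1%). In the mitosis list it was in 30 of 47 promoters, and a CCAAT box in 36 of 47. Of 39 matches in the lower promoters, 20 lay within 50 bases of the start, against 409 of 1598 matches in all promoters. The E2F letters TTTNGCGC were in 3 of the 103, 0 of the 163 and 336 of all 12811 (2.62%). The cyclic AMP element TGACGTCA was in 6 of the 103 and 5 of the 163, against 2.85% of all, and the antioxidant core TGACNNNGC in 9 and 27, against 14.5%. The E-box CACGTG was in 12 and 16, against 9.15%. The hypoxia core ACGTG, whose letters the E-box contains, was in 40 of the 103 (38.8%) and 39 of the 163 (23.9%), against 24.5% of all.

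Glycolysis genes were lower in the lower list, while the upper list, of dimmer genes, had a median near 0. Of 23 genes for glucose uptake and upper glycolysis none was past 2-fold in either direction, and the median was -0.02. SLC2A1, the transporter GLUT1, was the highest of them, at 3147 with and 4488 without glucose (0.51), and HK2, a hexokinase, followed at 134 and 176 (0.38). PFKP, a phosphofructokinase, was the lowest, at 759.9 and 541 (-0.49), and GPI followed at 1040 and 758 (-0.46). The median signal of this upper list was 91.1, against 388 in the lower one, and the offset shrinks the changes of its dim genes. In lower glycolysis and lactate handling, 16 of 18 genes were below 0, 3 of them at least 2-fold, with a median of -0.33 and a range of -0.55 to -0.25 over the settings. LDHA, which turns pyruvate into lactate, read 12319 and 4005 (-1.62). ENO1, enolase, read 19586 and 8537 (-1.20), and TPI1, triosephosphate isomerase, 8026 and 3651 (-1.14). LDHB, which favours the reverse reaction, read 14629 and 9756 (-0.58), while GAPDH was at -0.09. Spots named as positive controls, whose role is not stated in the sources used here, also differed between the arrays, with 1 set of 24 spots at 14126 and 7196 after background correction and the other at 39123 and 36044, and the bearing of this on LDHA, ENO1 and TPI1 was not tested.

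Around pyruvate, 1 gene stood apart. PCK2, the mitochondrial carboxykinase that sends carbon from the cycle toward glucose synthesis, read 224 with and 809 without glucose (1.85), alone past 2-fold among 19 genes. PDHB, a subunit of pyruvate dehydrogenase, read 1467 and 2573 (0.81), and MPC1, a subunit of the pyruvate carrier, 708 and 531 (-0.42). TXNIP, a glucose-induced brake on glucose uptake, read 98.0 and 57.2, close to the floor (-0.78). In its list MXD1, an antagonist of MYC, was higher, at 82.1 and 161 (0.97). None of 14 glycogen and galactose genes and none of 9 pentose phosphate genes was past 2-fold, with medians of 0.06 and -0.14.

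The study's published work centres on a pair of mitochondrial genes. GLUD1, glutamate dehydrogenase, read 467 with and 664 without glucose (0.51). SLC25A13, the mitochondrial aspartate and glutamate carrier, read 306 and 206 (-0.57). Its close relative SLC25A12 read 108 and 61.9 (-0.80). Among the 35 measured carriers, SLC25A36, a pyrimidine nucleotide carrier, read 619 and 1770.3 (1.52) and SLC25A10, a dicarboxylate carrier, 248 and 116 (-1.10), the 2 members past 2-fold. The tricarboxylic acid cycle had none of 22 past 2-fold, and its median of 0.03 was -0.18 with median scaling, -0.007 with cyclic loess and -0.14 with the authors' values. SUCLG1 was lowest (-0.74) and SUCLG2, which pairs with it, highest (0.67).

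Genes of the mitochondrial machinery were mostly lower, by small amounts. Of 60 respiratory chain and ATP synthase genes 45 were below 0 and 3 past 2-fold lower, with a median of -0.21 that ranged from -0.50 to -0.14. The median signal of this list was 1781. All measured genes with signals over 1600 had a median change of -0.08, and of -0.32 with median scaling. ATP5MC3, a ring subunit of ATP synthase, read 11317 with and 5098 without glucose (-1.15), and NDUFS5, of complex I, 2197 and 1037 (-1.08). Of 76 mitochondrial ribosomal proteins 54 were below 0 and 4 past 2-fold, with a median of -0.19. MRPS17 read 1039 and 463 (-1.17), and MRPL10 was the highest, at 0.99. In import and quality control, TOMM40, the pore of the outer membrane, read 826 and 364 (-1.18), and TIMM8B 2420.3 and 1169.6 (-1.05), 2 of 35 past 2-fold. The protease LONP1 and the chaperone HSPA9 were on the other side, at 0.89 and 0.78. TFAM, the packaging factor of mitochondrial DNA, read 414 and 234 (-0.83).

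**Figure D3:**
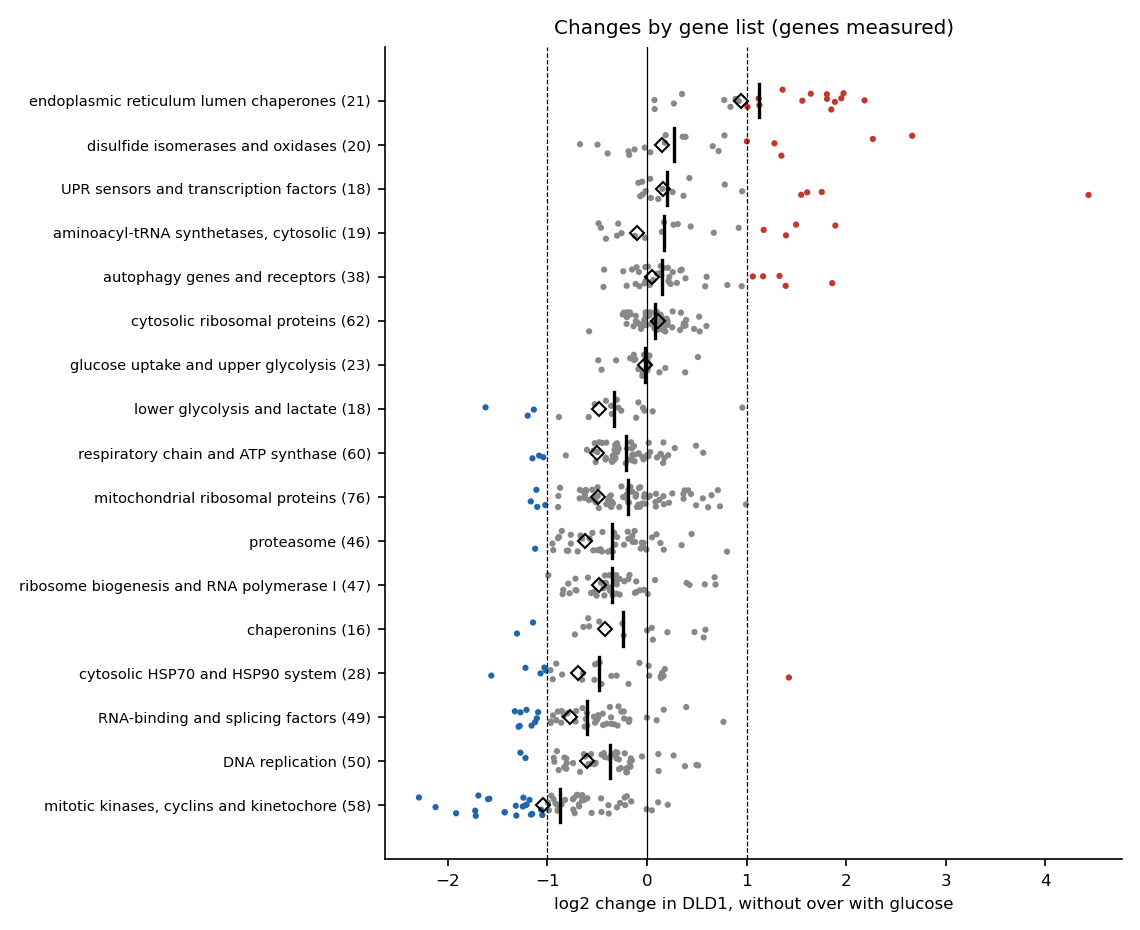
Log2 changes in DLD1, without over with glucose, of the members of 17 gene lists, 1 point a gene, with genes past 2-fold higher in red and lower in blue. Black bars mark list medians under quantile normalization and open diamonds those under median scaling. Endoplasmic reticulum chaperones have a median of 1.13 and mitotic genes of -0.87, and median scaling moves the medians of 16 of the 17 lists to the left, the exception being cytosolic ribosomal proteins.

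RNA-binding and splicing factors were lower almost throughout. Of 49 measured, 45 were below 0, 9 at least 2-fold, and none was 2-fold higher. The median of -0.60 ranged from -0.86 to -0.31 over the settings, and median scaling put 18 past 2-fold. HNRNPU, which binds nascent RNA and chromatin, read 5080.1 with and 2105 without glucose (-1.27). SRSF1, the founding SR splicing factor, read 2850.0 and 1309 (-1.12), and PTBP1, which represses exons, 2357 and 1055 (-1.16). EWSR1 read 933 and 385 (-1.28). SRSF6, the lowest member, read 188 and 74.8 (-1.33). HNRNPR (-1.21) and HNRNPL (-1.11) were lower as well, and HNRNPAB (-1.29) and SFPQ (-1.09) turned to 0.04 and 0.27 with the local background subtracted. CLK3, a kinase that acts on SR proteins, was the highest, at 377 and 642 (0.77). DHX15, the helicase that takes the spliceosome apart, was among the 20 lowest genes, at 1760.1 and 449 (-1.97), and POLR2L, a small subunit of RNA polymerases, at 527 and 186 (-1.5). So were HMGN3, a nucleosome-binding protein, at 1051 and 324 (-1.70), and TRMU, which modifies mitochondrial transfer RNAs, at 393 and 142 (-1.47).

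The making and clearing of cytosolic proteins moved by less. Of 47 ribosome biogenesis genes 40 were below 0 and none past 2-fold, with a median of -0.35, led by NOP16 at 1003 with and 505 without glucose (-0.99). The 62 cytosolic ribosomal proteins lay between -0.58 and 0.60, with a median of 0.08 that was 0.34 with cyclic loess. Among 45 translation factors the highest were EIF1, which finds the start codon, at 2648 and 7343 (1.47), EEF2, elongation factor 2, at 1283 and 3114 (1.28), and EIF4A2 at 1.26, which was at -0.003 with the local background subtracted. EIF5A, the factor that carries hypusine, was lowest, at 2092 and 981 (-1.09). Of 46 proteasome genes 39 were below 0, with a median of -0.35, and PSMA7, a ring subunit, at 5368 and 2465 (-1.12) was past 2-fold. In the ring chaperonin that folds actin and tubulin, TCP1 read 6773 and 2742 (-1.30) and CCT6A 4199 and 1900.4 (-1.14), while CCT8 was at 0.20. Their substrates included TUBA4A, at 1915 and 715 (-1.42), TUBB4B (-1.18) and TUBB (-1.16), genes whose sequences resemble each other, beside TUBE1 at 1.17.

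The cytosolic HSP70 and HSP90 system stood opposite to its counterpart in the endoplasmic reticulum. Of 28 measured genes 20 were below 0, 5 at least 2-fold, and 1 was 2-fold higher, with a median of -0.48 that ranged from -0.74 to -0.25. HSPA14, an HSP70 bound to ribosomes, read 849.5 with and 288 without glucose (-1.56). STIP1, which passes clients from HSP70 to HSP90, read 1621 and 696 (-1.22). BAG3, an exchange factor that steers clients to autophagy, read 969 and 462 (-1.07). The J-domain genes DNAJA1 and DNAJB1 read 1875 and 918 (-1.03) and 1241 and 634 (-0.97). HSPH1, the large exchange chaperone, read 2966 and 1578 (-0.91). HSPA1B, the stress-inducible HSP70, read 710.4 and 369 (-0.95), and HSPA1A, its near-identical copy, 76.7 and 62.1 (-0.30), so the pair cannot be read apart with certainty. HSPA8, the constant HSP70, was near even, at 21238 and 23593 (0.15). The 1 higher member, HSPA13, is known from membranes of the endoplasmic reticulum rather than the cytosol, and read 193 and 519 (1.43).

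In HT29 the same cytosolic genes had a median above 0. It was 0.81, with 12 of 28 at least 2-fold higher and 1 lower, whereas the lumen chaperones were higher in both lines (median 1.92 in HT29). BAG3 read 493 with and 4988 without glucose in HT29 (3.34), DNAJB1 731 and 5829.8 (3.0), and HSPA1B 1655 and 15979.5 (3.27). HSPA14 was lower in both, at -1.17 in HT29. ZFAND2A, a partner of the proteasome that heat shock induces, had the largest difference between lines, at 1.19 in DLD1 and 6.14 in HT29. HMOX1, heme oxygenase 1, was at 0.33 and 4.88, DUSP1, a MAP kinase phosphatase, at 0.32 and 4.20, and CDKN1A at 0.49 and 4.18. On the other side ETV3 (0.04 in HT29), NUPR1 (0.44), CLIC3 (-0.87) and TMEM139 (1.83 and -0.65) were higher in DLD1. ACAT2, S100A4 and TSPAN8 were close to even in DLD1, at 0.34, 0.47 and 0.17, and at -2.42, -2.20 and -2.36 in HT29. Each line has 1 array a medium, and these differences were not tested. Of 15606 genes above background in both lines, 7665 were above 0 in HT29 and 7892 below, and 598 were past 2-fold upward and 516 downward. Of the 188 genes higher in DLD1, 173 were above 0 in HT29, 111 of them at least 2-fold, and 46 lay within 0.5 of 0. Of the 126 genes lower in DLD1 and above background in both lines, 114 were below 0 in HT29, 69 of them at least 2-fold, and 18 lay within 0.5.

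**Figure D4:**
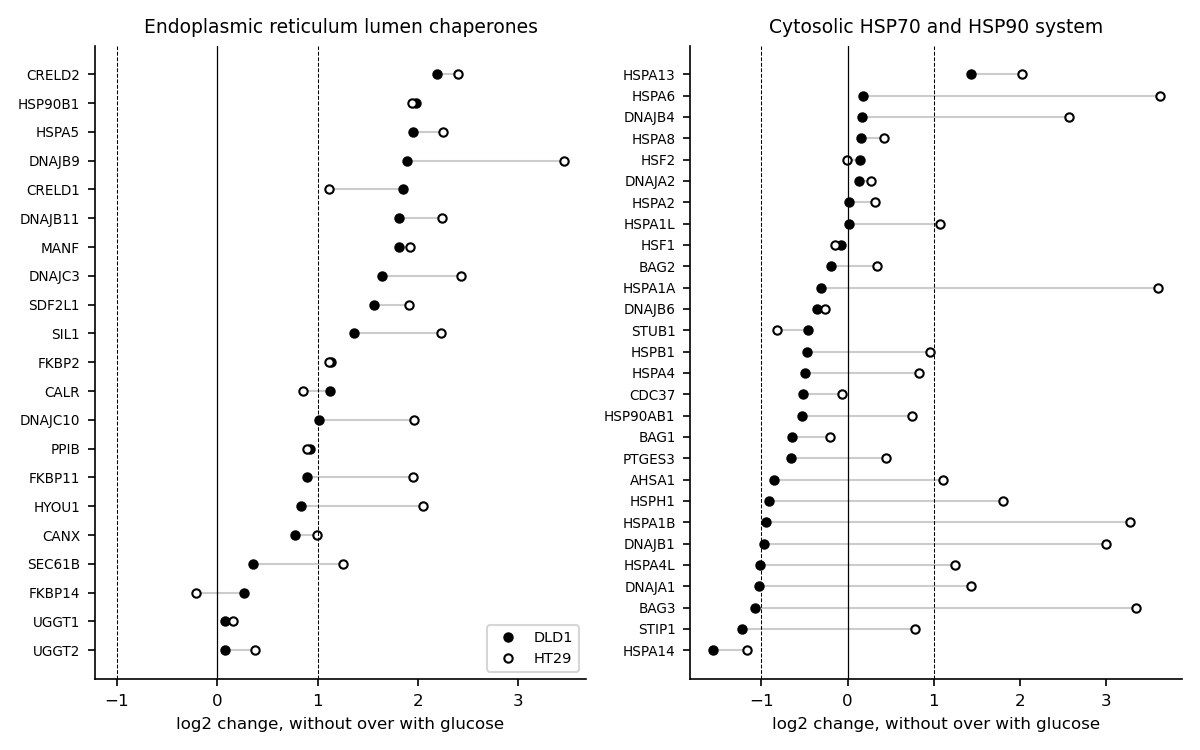
Log2 changes, without over with glucose, of the 21 genes of the endoplasmic reticulum lumen chaperone list (left) and 28 genes of the cytosolic HSP70 and HSP90 system (right). DLD1 is shown as filled and HT29 as open points, with dashed lines at 2-fold. The lumen genes are above 0 in DLD1, and 20 of the 28 cytosolic genes are below 0 there, while BAG3, DNAJB1 and HSPA1B are at 3.34, 3.0 and 3.27 in HT29.

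In lists of secreted and signalling genes between 0 and 4 members were past 2-fold. Among 24 secreted stress hormones and cytokines 4 were higher and none lower, with a median of 0.28. GDF15, a stress hormone, read 374 with and 897 without glucose (1.26), with its 2 probes at 0.49 and 2.03. VEGFA, the angiogenic factor, read 134 and 299 (1.16), and BTC, a ligand of the EGF receptor, 76.1 and 168 (1.14). VEGFA was alone past 2-fold among 36 hypoxia genes, where HIF1A was at 0.34 and NDRG1 at 0.77. CCN1 and CCN2, matrix proteins that YAP induces, read 655 and 2103 (1.68) and 239 and 523 (1.13). SAV1, a scaffold of the Hippo pathway that restrains YAP, read 362 and 789 (1.12). DUSP5, a nuclear phosphatase of ERK, read 428 and 1308 (1.61), and ELF3, an epithelial ETS factor, 169.7 and 378 (1.15). None of 32 early growth response genes passed 2-fold, with KLF2 (0.97) and KLF6 (0.96) highest and EGR1 at -0.40. Of 32 interferon-stimulated genes ISG20, an exonuclease, passed (1.48), and of 16 genes of MHC class I presentation HLA-E (1.61), with CALR and PDIA3, although HLA-E was at -0.36 with the local background subtracted and belongs to a family of similar genes.

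Of 24 GADD45 and p53-target genes 3 were at least 2-fold higher and 0 lower, with a median of 0.15. Of 26 death receptor and caspase genes 1 was higher and 0 lower. The shares over all measured genes were 1.18% higher and 0.808% lower. GADD45A, a sensor of stress and DNA damage, read 713 with and 1725 without glucose (1.28). CASP4, an inflammatory caspase linked to the endoplasmic reticulum, read 539 and 1132 (1.07). In the BCL2 family, 2 of 20 were past 2-fold, BCL2L15 (-1.25) and BCL2L12 (-1.06), both lower, and the NOXA gene PMAIP1 was at 0.87. KLHL24 (1.14) among 27 FOXO and insulin genes and TGIF1 (1.01) among 26 BMP and SMAD genes were past 2-fold higher. TNFRSF19 (-1.01), a receptor of crypt stem cells, was past 2-fold lower among 27 WNT target and stem genes.

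Most identity genes of the gut epithelium did not reach 2-fold, and many were dim. The median signal was 72.0 over 26 enterocyte genes and 89.3 over 16 mucin and goblet genes, so the offset shrinks many changes. The mucin and goblet median of 0.03 was 0.35 with the authors' values, where 3 genes were at least 2-fold higher. Among mucin and goblet genes AGR2, an isomerase that folds mucins, read 3939 with and 8870.3 without glucose (1.17), and TFF3 211 and 418 (0.98). None of 26 enterocyte genes, 18 keratins or 28 junction genes passed 2-fold, and CDX2, the intestinal master factor, read 408 and 249.9 (-0.71). In lipid synthesis, FASN, fatty acid synthase, read 1569 and 759 (-1.05), FADS3 was at 1.03, and none of 23 sterol genes passed. Of 36 detoxification genes, CYP1A1 (63.1 and 195, 1.62), GSTZ1 (1.22) and ALDH3B1 (1.05) were higher and ALDH1B1 (-1.16) lower. AKR1C3 (1.25) was past 2-fold among the NRF2 genes, beside TXNRD1 and SQSTM1. Of all 70 lists, 8 had a median of at least 0.2, 12 of at most -0.2 and 50 between, and 15 changed the sign of the median under at least 1 other setting.

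No gene that was above background on 1 DLD1 array alone reached 2-fold. The largest lower limits, taken against the dimmest probe above background, were at least 1.84-fold higher for CDH15, a cadherin, without glucose and at least 1.51-fold lower for CGA, a hormone subunit. Such genes numbered 423 without and 352 with glucose. In the authors' values CDH15 read 0.8 with and 37.2 without glucose, and CGA 22.8 and 1.0. Probes of 1 gene could disagree. The widest gaps were in DOCK4, with probes at -0.15 and 1.95, TOP3B, with probes from -0.19 to 1.67, and BTN3A1, at 0.02 and 1.73. Of 75 genes with 2 probes of which at least 1 was past 2-fold, 22 had both past it in 1 direction and 4 had probes of opposite sign.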

How the data were processed

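RNA of DLD1 and HT29 cells was labelled with Cy5 and each sample hybridised to 1 single-colour array of 27456 spots. Per the file headers, the authors deposited the median intensity of each spot at 635 nm and of its surroundings, with 3 scanner gains joined. They also deposited a table of processed intensity values with a median of 25.0 in each column, which served as an alternative. The sources used here do not give its steps. Its values followed the spot medians (r of 1.0 on each array), so it is another scaling of the same spots and not a separate measurement. For changes with the authors' values, empty values and those under 1 were set to 1. Spot intensities were corrected with normexp (offset 50), blank and control spots were dropped, and the 4 arrays were brought to 1 distribution by quantile normalization (limma 3.58.1, R 4.3.3). A probe was above background where it passed the 95th percentile of the 2680 blank spots. Each gene took the mean log2 value over those of its probes that passed on either DLD1 array. Of 24460 probes 20236 had 1 gene symbol and 4224 none, and 2529 symbols were updated through RefSeq. A change of 2-fold is a count with no test, since each side has 1 array. Alternatives were median scaling, cyclic loess, the DLD1 arrays alone, local background subtraction, no background correction, an offset of 16, the authors' values, 2 other probe filters and the brightest probe. The text names the 20 highest and 20 lowest genes, genes above background on 1 array, the largest differences between lines, members of 70 lists after the list's count, genes whose probes disagree, GLUD1 and SLC25A13. Members and lists were chosen with earlier results of these data known.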

Additional observations from a re-analysis of the deposited data

Results flagged for a closer look

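The genes below changed in opposite directions in DLD1 and HT29, at least 2-fold in DLD1 and by at least 0.5 on the log2 scale the other way in HT29. With 1 array a line and medium the differences between the lines were not tested. Among chaperone genes, BAG3 was at -1.07 in DLD1 and 3.34 in HT29, STIP1 at -1.22 and 0.78, DNAJA1 at -1.03 and 1.43, and HSPA4L at -1.01 and 1.25. The HSP90 partners FKBP4 and CHORDC1 were at -1.17 and 0.54 and at -1.14 and 0.90, and the pseudogene HSP90AA2P at -1.35 and 0.65. In the other direction CLIC3 was at 2.04 in DLD1 and -0.87 in HT29, TMEM139 at 1.83 and -0.65, and IAH1, a gene of the esterase family, at 1.05 and -1.36.

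Probes that carry no gene symbol were in no comparison. Of 3554 such probes above background in DLD1, 17 reached 2-fold higher signals without glucose and 18 reached 2-fold lower ones.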

How the results depend on the processing

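Each line and medium had 1 array, so no array could be left out, and the precision is limited by the number of arrays. No paired analysis was possible because the groups compared share only replicate number 1. The counts of genes at least 2-fold higher and lower, 188 and 129, became 100 and 320 with median scaling. Subtraction of the local background gave 504 and 563. They were 296 and 229 with an offset of 16, and 661 and 737 with the authors' values. The smaller offset shrinks the changes of dim genes less, and the cause of the other differences was not tested. The local background followed the spot signal itself (r of 0.952 and 0.968 across spots of the DLD1 arrays, which share the scan). Under the other 6 settings both counts stayed within 1.5 times. The 2 probe filters among them left the counts at 188 and 129. They only add or drop probes not above background on both arrays, so they are a weak check of these counts. With the local background subtracted, 10 named genes that were past 2-fold changed sign: BUB1 to 0.29, BUB1B to 0.71, CMKLR2 to -0.059, EIF4A2 to -0.003, HLA-E to -0.36, HNRNPAB to 0.037, SARS1 to -0.84, SFPQ to 0.27, SNHG32 to -2.43 and XBP1 to -0.85. Changes of sign among named genes below 2-fold are not listed here. Among list medians under the other settings, 656 moved by less than the spread between probes and 44 by more. Among the changes of single named genes, 3039 moved by less than that spread and 1011 by more, besides the 10 listed above.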

Other observations

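Genes outside the lists, chosen after their values were seen, added surface, secreted and growth genes to the DLD1 changes. LAMB3, a laminin chain of epithelial basement membranes, read 381 with and 1358 without glucose (1.83 on the log2 scale). NIBAN1, a stress-induced gene, read 95.4 and 317 (1.73), and CD55, which shields cells from complement, 678 and 2229 (1.72). SAT1, which acetylates polyamines for breakdown, read 968 and 3177 (1.71), and CCNG2, an unusual cyclin of resting cells, 199.9 and 627 (1.65). SLPI, a secreted protease inhibitor, was at 1.29, SERPINB1, an intracellular one, at 1.41, and the tetraspanin TSPAN1 at 1.63.

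On the lower side SMC4, a condensin subunit, read 1070.5 and 436 (-1.30), LMNB1, lamin B1, 494 and 205 (-1.27), and SKP2, which marks CDK inhibitors for degradation, 259 and 116 (-1.16). PPIH, a cyclophilin of the spliceosome, was at -1.31, DYNLL1, a dynein light chain, at -1.33, and RUVBL1, an ATPase of several chromatin complexes, at -1.22. The HSP90 partners FKBP4 (-1.17) and CHORDC1 (-1.14) were lower beside the cytosolic chaperones, and so was HSP90AA2P (-1.35), a pseudogene whose probe may read HSP90AA1. In all, 110 of the 188 higher and 60 of the 129 lower genes lay in no list.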
